A study of Mus musculus with 14 samples.

Results

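The core cardiac transcription factors described here are 10 genes, Nkx2-5, Gata4, Gata5, Gata6, Tbx2, Tbx5, Tbx20, Hand1, Hand2 and Mef2c. They were chosen by name, and all 10 were found among the 15894 genes of the deposited table. These genes encode DNA-binding proteins of the NK homeodomain, GATA zinc finger, T-box, basic helix-loop-helix and MADS families. They bind together at the enhancers of cardiac genes, switch on the contractile programme of cardiomyocytes and set the identity of chambers. Several, among them Gata4, Gata6 and Hand2, are also known from the epicardium, the mesothelial sheet that covers the heart and gives rise to fibroblasts and mural cells.

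RNA was measured in the epicardium/subepicardium dissected from E16.5 mouse hearts, comparing the dorsal with the ventral side and males with females. All groups carried the genotype label Tbx18Cre, a Cre allele active in the epicardium, and none was treated. The series text calls the hearts wild type. By their labels, the female hearts gave 3 ventral and 3 dorsal libraries and the male hearts 4 ventral and 3 dorsal ones, and each library pooled the tissue of 2 hearts. A further male library, number 7, is called dorsal in its title and ventral in its tissue field. It entered no comparison, and its values are given on their own.

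Each library held between 13918995 and 25221314 reads on listed genes. Values are normalized CPM, read counts divided by a scaled library size. The tests were run with limma on log2(normalized CPM + 1), and a gene was called under a Benjamini-Hochberg adjusted p of 0.05. Changes are therefore understated for genes of low value. Females carried the numbers 1 to 3 and males 4 to 7, so a sex difference and a difference in preparation of the numbered sets cannot be told apart.

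The content of the dissected layer differed between libraries. The 10 epicardial markers summed to between 251 and 613 normalized CPM in the female dorsal libraries. The sums were 1702 to 2792 in female ventral libraries, and in males 1988 to 6075 ventrally and 1603 to 4301 dorsally. The label epicardium/subepicardium thus covered tissue in which epicardial markers were lowest in all 3 female dorsal libraries. The 10 ventricular cardiomyocyte markers were high in every library and summed to between 18210 and 48460 normalized CPM. In bulk tissue, fewer cells of a type and less RNA per cell cannot be told apart.

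Female dorsal library 1 stood apart from the others. Its atrial markers, of which 5 of 6 were in the table, summed to 12480 normalized CPM, and the other 13 libraries lay between 477 and 1995. Results that rest on this library are given with and without it.

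The promoters of Nkx2-5 and Mef2c are shown because these genes were called together in the female hearts. RefSeq start sites on GRCm38.p6 gave a promoter for 5 of the 10 members, Nkx2-5, Mef2c, Gata5, Hand2 and Tbx20. The stretches below lie before a RefSeq start site, outside annotated exons, at chr17:26841609-26841815 on the minus strand for Nkx2-5 and chr13:83503784-83504033 on the plus strand for Mef2c. Both strands were searched for the GATA motif AGATAA, the NK2 motif AAGTG and the T-box motif AGGTGT, and capitals mark a match. The GATA and NK2 letters can overlap, which did not occur here. The Nkx2-5 stretch precedes the shorter transcript and lies within the gene as annotated, in an intron of a longer GENCODE transcript that starts at chr17:26845009. Mef2c has 3 windows in the table, and the stretch shown is before the most upstream start site.
Nkx2-5: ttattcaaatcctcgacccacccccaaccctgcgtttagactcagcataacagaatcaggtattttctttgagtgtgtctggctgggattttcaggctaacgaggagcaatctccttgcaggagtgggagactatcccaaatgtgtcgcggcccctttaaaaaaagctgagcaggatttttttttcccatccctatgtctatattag
Mef2c: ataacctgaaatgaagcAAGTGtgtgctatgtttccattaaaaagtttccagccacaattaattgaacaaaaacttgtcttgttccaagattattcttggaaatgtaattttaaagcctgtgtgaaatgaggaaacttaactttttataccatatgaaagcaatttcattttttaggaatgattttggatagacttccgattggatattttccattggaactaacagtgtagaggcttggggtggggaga
The Nkx2-5 stretch of 207 bases held none of the 3 motifs. Over the same length, 8.67% of the 32851 mouse promoters in the table held the GATA motif, 35.2% the NK2 motif and 10.2% the T-box motif. The Mef2c stretch of 250 bases held 1 NK2 match, as did 40.7% of all promoters at that length. The other Mef2c windows, before start sites further downstream, each held 1 NK2 match, and the second of the 3 windows also held 1 T-box match.

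Per length, the members spanned a wide range of RNA levels. Dividing by kb of merged exon, the mean over the 14 libraries was highest for Nkx2-5 at 41.7 ± 18.8 (SD) normalized CPM per kb, followed by Tbx20 at 15.8 ± 2.93. Hand2, Gata4 and Gata6 came next at 12.7 ± 2.28, 12.5 ± 2.99 and 11.6 ± 4.47. Mef2c had 8.90 ± 1.67 and Tbx5 had 5.16 ± 5.92. Hand1, Tbx2 and Gata5 were lowest with 2.27 ± 1.52, 0.954 ± 0.459 and 0.639 ± 0.593. Neighbours in the middle of this order did not separate beyond their spread, since Hand2 exceeded Gata4 in only 7 of the 14 libraries and Gata6 exceeded Mef2c in 9. Nkx2-5 exceeded Tbx20 in 12 libraries, and the 2 exceptions are among the female ventral libraries. With the longest transcript as the length, Nkx2-5 stayed first, Mef2c moved from the sixth to the second place and the 4 lowest genes kept their order.

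**Figure D1:**
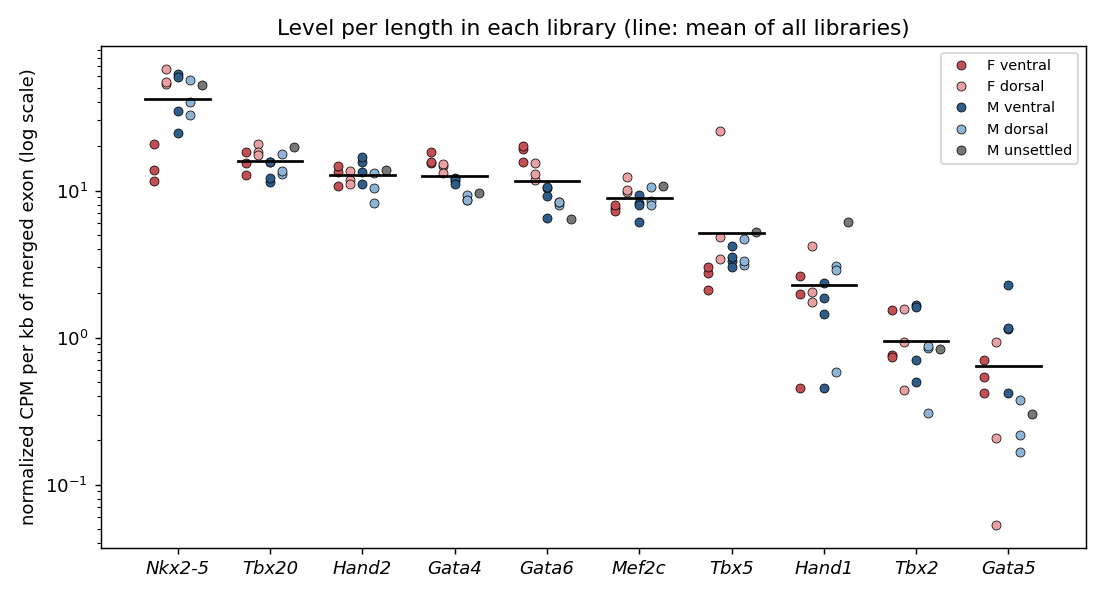
Normalized CPM per kb of merged exon (log scale) for each of the 10 genes, with 1 point per library coloured by group and a line at the mean of the 14 libraries. Nkx2-5 had the highest mean at 41.7 and Gata5 the lowest at 0.639 normalized CPM per kb, and the Tbx5 point far above its mean is female dorsal library 1.

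In female hearts, 2 of the 10 genes changed between the regions, and both were lower ventrally. Nkx2-5, the homeobox factor that marks cardiac progenitors and myocytes, fell most, and Mef2c, a MADS-box activator of muscle genes, fell less. The other 8 did not pass the test. Over all genes, 27.8% of the 14411 tested were called in either direction and 13.3% were called lower ventrally, beside 2 of the 10 genes here. All 10 passed the filter on low values in every comparison.

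Nkx2-5 (chr17:26838664-26845009, minus strand, GRCm38) had 35.6, 23.7 and 20.03 normalized CPM in the female ventral libraries 1 to 3. The female dorsal libraries had 91.3, 115.9 and 94.1. Every ventral library was below every dorsal one, with no overlap. The mean was 26.4 ± 8.15 (SD, n = 3) ventrally and 100.4 ± 13.5 (n = 3) dorsally, a ratio of 3.80. The log2 change, ventral minus dorsal, was -1.92 ± 0.21 (SE; limma, adjusted p = 0.000609). Without female dorsal library 1 it was -1.98 (adjusted p = 0.00209).

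Mef2c (chr13:83504034-83667080, plus strand) had 118.9, 114.2 and 125.7 normalized CPM in the female ventral and 194.1, 152.6 and 158.0 in the female dorsal libraries. The ventral values were close together and all below the dorsal ones. The means were 119.6 ± 5.80 and 168.3 ± 22.6 (SD, n = 3 each), with a log2 change of -0.48 ± 0.14 (SE; limma, adjusted p = 0.0286). Without female dorsal library 1 the change was -0.38 and was no longer called (adjusted p = 0.0736), in a fit that called 22.9% of all genes. The call was also lost without female ventral library 1, 2 or 3, with adjusted p between 0.0548 and 0.0992.

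Several marker lists differed between the same female groups. Of the epicardial markers 9 of 10 rose ventrally, and of the fibroblast markers 5 of 8, beside 27.8% of all genes called in either direction. Ventricular cardiomyocyte sums were 24490 to 35320 normalized CPM ventrally and 33190 to 46440 dorsally, ranges that overlapped. Of these 10 markers, Ttn and Ryr2 were called higher ventrally and none was called lower. The log2 change was below 0 for 8 of the 10, with a median of -0.23 over the list beside 0.01 over all genes. None of the 10 was at or under 3 reads in every library. With the epicardial markers as a covariate, Nkx2-5 had -1.40 (adjusted p = 0.552) and Mef2c -0.05 (adjusted p = 0.986), in a fit that called 0.16% of all genes. Epicardial sums did not overlap between the female regions, so in these 6 libraries region and epicardial content cannot be told apart. With the ventricular cardiomyocyte markers as a covariate, Nkx2-5 had -1.82 (adjusted p = 0.000198) and Mef2c -0.50 (adjusted p = 0.0238).

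**Figure D2:**
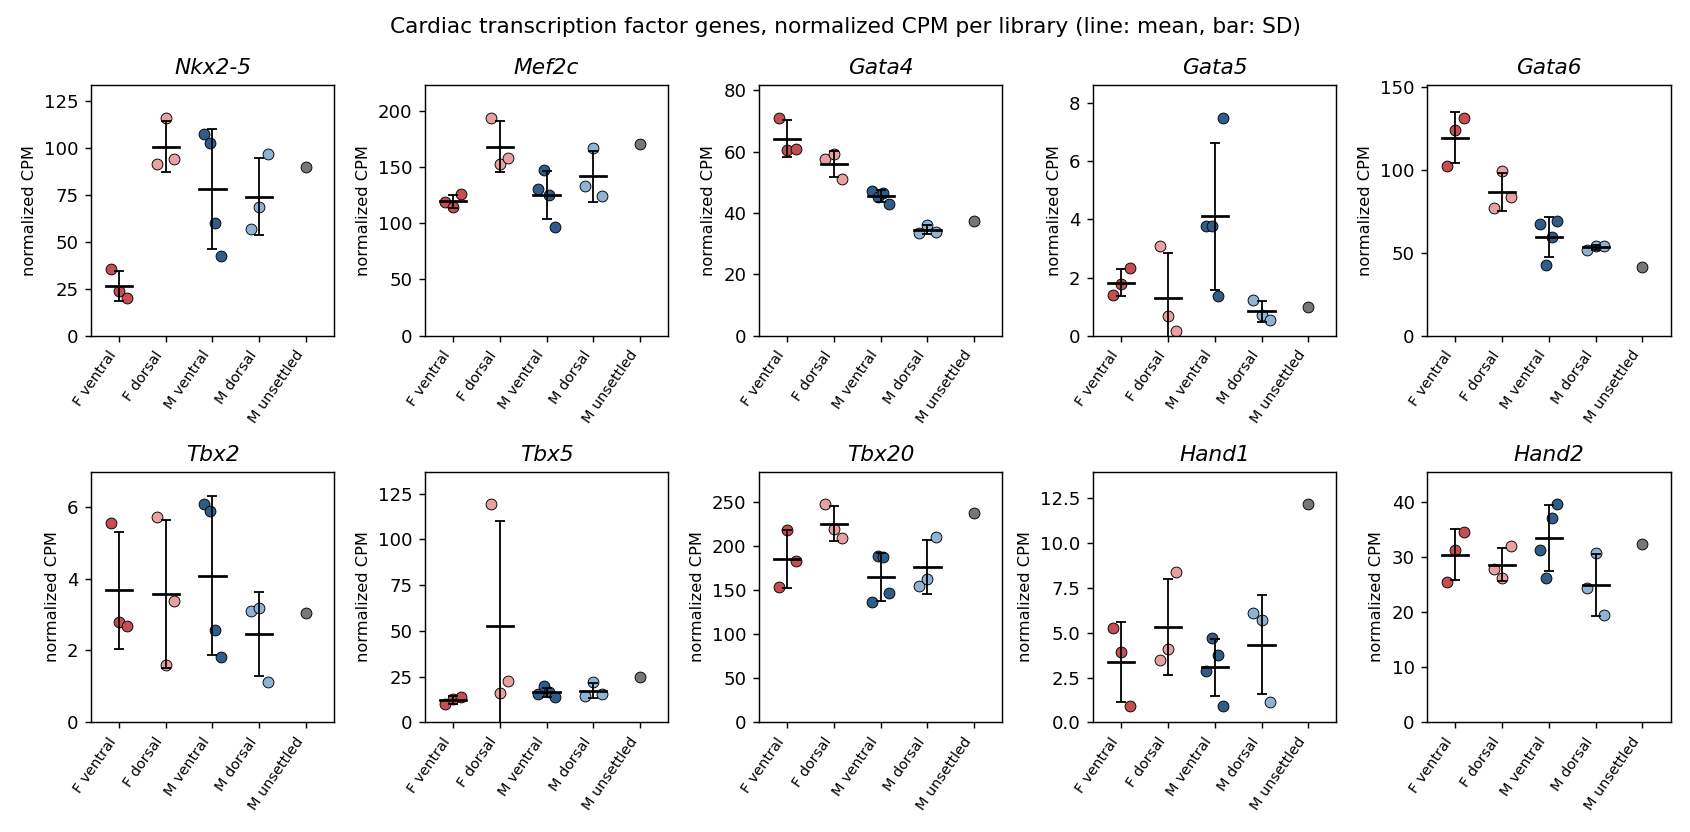
Normalized CPM of the 10 genes in each library (points), by sex and region, with the group mean (line) and SD (bar, cut at 0 on the axis). The female ventral libraries had 20.03 to 35.6 for Nkx2-5 and the female dorsal libraries 91.3 to 115.9, and Gata4 and Gata6 were lower in all male than in all female libraries.

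Tbx5 (chr5:119832668-119885219, plus strand), a T-box factor of the atria, the left ventricle and the conduction system, rested on a single library. It had 9.78, 12.9 and 14.1 normalized CPM in the female ventral libraries. The dorsal libraries had 119.2, 16.1 and 22.7. The groups did not overlap, and library 1, with the high atrial markers, was 5.24 times the next highest dorsal library. The log2 change was -1.48 ± 0.59 (SE) and did not pass the test (limma, adjusted p = 0.0886). Without female dorsal library 1 it was -0.62 (adjusted p = 0.143). With the replicate block, which pairs the libraries of a number, Tbx5 was called at -1.48 (adjusted p = 0.0403), and that fit called 29.6% of all genes. The part of atrial tissue in that library was not tested.

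The 3 genes of the GATA factors, which open and activate cardiac enhancers, had positive changes in females, none of them called. Gata6 (chr18:11052064-11085635, plus strand) had 102.3, 124.5 and 131.7 normalized CPM in the female ventral libraries and 77.2, 99.7 and 83.9 in the dorsal ones. All ventral values were above the dorsal ones, with a narrow gap between 99.7 and 102.3. The log2 change was 0.45 ± 0.15 (SE; limma, adjusted p = 0.0527), which missed the threshold, and with the replicate block it was called (adjusted p = 0.0436). Without female dorsal library 1 it was 0.37 (adjusted p = 0.131). Gata4 (chr14:63198922-63271692, minus strand) had 71.1, 60.6 and 61.0 ventrally and 57.8, 59.2 and 51.2 dorsally. These values did not overlap either, and the change of 0.19 ± 0.14 was not called (adjusted p = 0.344). Gata5 (chr2:180325133-180334699, minus strand), the least abundant GATA gene, had 3 to 66 reads per female library. Its values of 1.38, 1.77 and 2.32 ventrally overlapped with 3.07, 0.681 and 0.175 dorsally. The Gata5 change was 0.48 ± 0.46 (adjusted p = 0.466). Without female dorsal library 1, which had the 3.07, it was 0.99 and was not called (adjusted p = 0.0938).

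In all, 5 of the 10 genes had female groups that did not overlap, namely Nkx2-5, Mef2c and Tbx5 lower ventrally and Gata4 and Gata6 higher. Over all genes tested, 44.8% did not overlap. The median log2 change of the 10 genes was -0.11, and that of all genes tested was 0.01.

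The remaining genes did not separate the female regions. Tbx20 (chr9:24718138-24774303, minus strand), a T-box factor required for chamber growth, had 153.6, 218.8 and 183.8 normalized CPM ventrally and 247.7, 219.3 and 209.5 dorsally. These ranges overlapped, and the log2 change was -0.29 ± 0.16 (SE; adjusted p = 0.193). With the GC and length trends removed from each library, Tbx20 was at -0.55 and was called lower ventrally (adjusted p = 0.0227). Hand2 (chr8:57320983-57324633, plus strand), a basic helix-loop-helix factor of the right ventricle and the epicardium, changed by 0.08 ± 0.18 (adjusted p = 0.774). Its exons overlap those of the antisense gene Hand2os1 over 14.97% of possible 60-base reads, and counting by strand is not stated. Hand1 (chr11:57828705-57832818, minus strand) of the left ventricle and outflow tract and Tbx2 (chr11:85832551-85841948, plus strand), a repressor of chamber genes in the atrioventricular canal, were low. Hand1 ranged from 0.909 to 8.36 and Tbx2 from 1.61 to 5.70 normalized CPM over the 6 female libraries, with changes of -0.62 ± 0.48 and 0.08 ± 0.41. The Hand1 change was -0.11 without female ventral library 3 and -0.30 without female dorsal library 3.

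Male hearts showed no call for any of the 10 genes. None of the 14917 genes tested was called either (0.0%), by limma or by edgeR, while 2083 genes had an unadjusted p under 0.05. The male groups did not overlap for 2 of the 10 genes, Gata4 and Gata5, both higher ventrally, against 14% of all genes in either direction.

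Gata4 had 47.3, 45.4, 46.7 and 43.1 normalized CPM in the male ventral libraries 4 to 7. The male dorsal libraries 4 to 6 had 33.6, 36.2 and 33.8. Both groups were tight and stood apart, with means of 45.6 ± 1.88 (SD, n = 4) and 34.5 ± 1.48 (n = 3). The log2 change was 0.39 ± 0.14 (SE; limma, adjusted p = 0.309), and it was higher ventrally in 3 of 3 numbers in each sex.

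Gata5 had 3.76, 3.79, 1.38 and 7.51 normalized CPM in the male ventral and 1.23, 0.718 and 0.545 in the male dorsal libraries. The lowest ventral library was just above the highest dorsal one, and the reads behind these values were 34 to 176 and 11 to 18. The log2 change was 1.36 ± 0.43 (SE; limma, adjusted p = 0.288). The annotated antisense gene Gata5os overlaps 4.44% of possible 60-base reads of Gata5.

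In males, Nkx2-5 did not separate the regions. The male ventral libraries 4 to 7 had 107.4, 102.3, 59.7 and 42.6 normalized CPM, and the dorsal libraries 4 to 6 had 56.6, 68.3 and 96.6. The dorsal range lay within the ventral one, and the ventral libraries split into a high and a low pair. The epicardial markers summed to 2317 and 1988 in the high pair and to 5659 and 6075 in the low pair. The ventricular cardiomyocyte markers summed to 36510 and 34800 in the high pair and to 23480 and 18210 in the low pair. In the dorsal libraries 4 to 6, where Nkx2-5 rose in that order, the epicardial sums rose too, at 1603, 2098 and 4301. The ventricular cardiomyocyte sums there fell, at 48460, 38670 and 37000. The part of tissue content in the ventral split and the dorsal order was not tested. The Nkx2-5 log2 change was 0.01 ± 0.32 (SE; limma, adjusted p = 0.990), with 2 SE on each side reaching from -0.62 to 0.65.

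**Figure D3:**
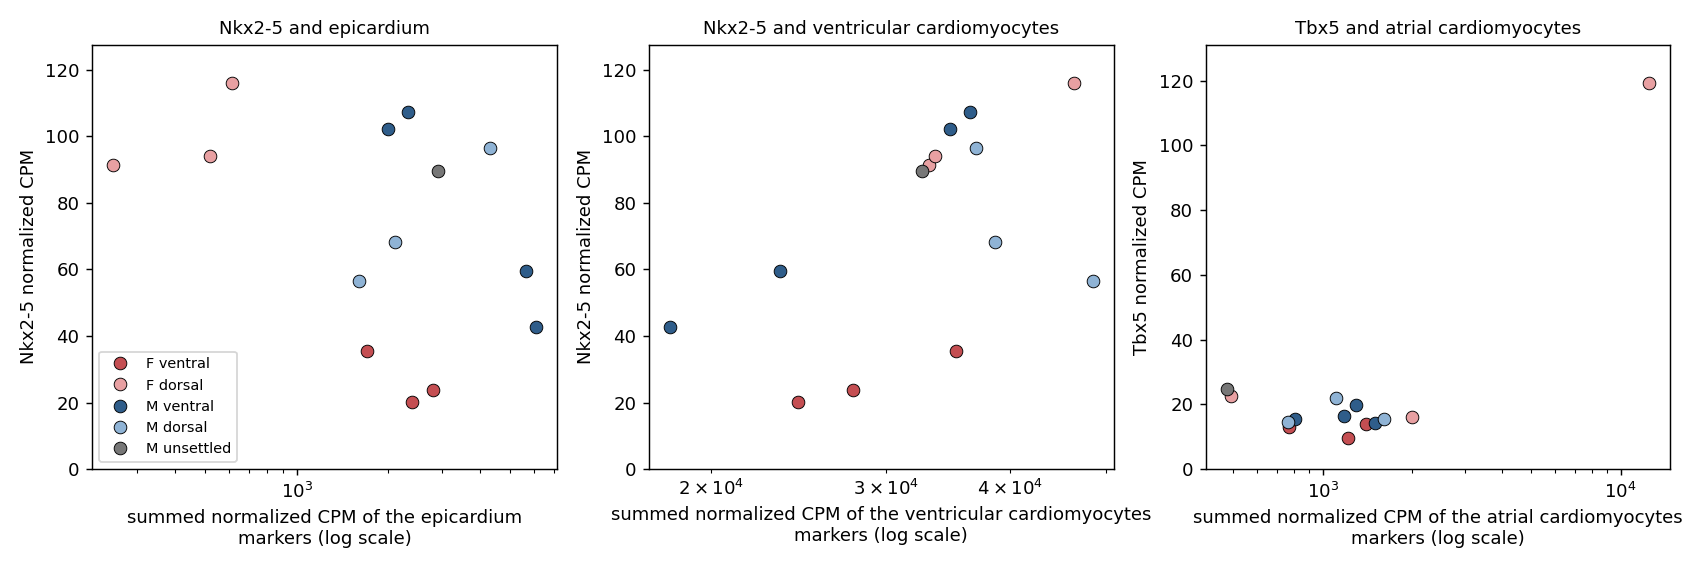
Normalized CPM of Nkx2-5 against the summed epicardial and ventricular cardiomyocyte markers and of Tbx5 against the summed atrial markers (log scale), 1 point per library coloured by group. The Tbx5 value of 119.2 sits with the atrial sum of 12480 in female dorsal library 1, and the 3 female ventral libraries have the lowest Nkx2-5 values.

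The regional change of Nkx2-5 differed between the sexes. The male change minus the female change was 1.93 ± 0.43 on the log2 scale (SE; limma interaction, adjusted p = 0.0252). It was the only 1 of the 10 genes called, against 2.73% of the 15772 genes tested in either direction and 2.12% with a higher change in males. With each library's trend on GC and length removed, the difference was 1.40 and was not called (adjusted p = 0.087), and with the epicardial covariate it was 1.47 (adjusted p = 0.117). The call was also lost in 6 of 13 fits that left out a library, namely female ventral 2 or 3, female dorsal 2 or 3, or male dorsal 4 or 5, with changes of 1.76 to 1.98 and adjusted p between 0.0534 and 0.078. Tbx5 had the next largest difference of 1.42 ± 0.69 (adjusted p = 0.343), and without female dorsal library 1 it was 0.56 (adjusted p = 0.528).

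**Figure D4:**
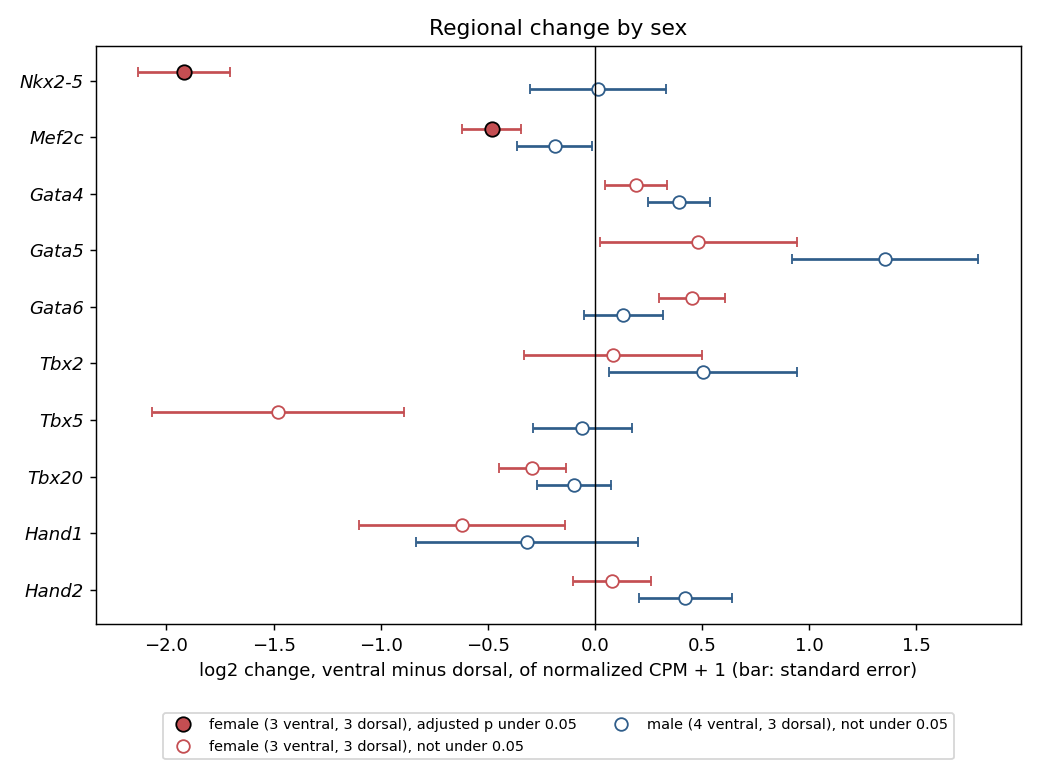
Log2 change, ventral minus dorsal, of normalized CPM + 1 for each gene, with the standard error, in female and male hearts (filled points have an adjusted p under 0.05). Nkx2-5 was at -1.92 in females and 0.01 in males, and the 3 GATA genes lay above 0 in both sexes.

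Over both sexes with sex as a covariate, Gata4 was the only gene of the 10 called, against 18.9% of all genes in either direction and 9.8% higher ventrally. It was higher ventrally by 0.30 ± 0.10 on the log2 scale (SE; limma, adjusted p = 0.0425). The call is close to the threshold and was lost in each of the 13 fits without 1 library, with adjusted p between 0.0507 and 0.0843. With the replicate block the change was 0.31 and was not called (adjusted p = 0.102). Gata5 changed by 0.95 ± 0.34 (adjusted p = 0.0606), Nkx2-5 by -0.89 ± 0.32 (adjusted p = 0.0661) and Mef2c by -0.32 ± 0.12 (adjusted p = 0.0697), none of them called. Gata5 was called without female dorsal library 1 (1.21, adjusted p = 0.0219) and without male ventral library 6 (1.08, adjusted p = 0.0472). In the other 11 of 13 fits without 1 library it was not called.

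Between the sexes, Gata4 and Gata6 fell in males and the other 8 genes did not pass the test. Of all genes, 10.9% were called and 6.54% were called lower in males. Both genes were below the female range in every male library of settled region. Over all genes, 3.91% had sexes that did not overlap, in either direction.

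Gata6 had a lowest value of 77.2, a median of 101.0 and a highest of 131.7 normalized CPM in the 6 female libraries. In the 7 male libraries of settled region these were 42.6, 54.4 and 69.1, so the sexes did not overlap. The mean was 103.2 ± 21.6 (SD) in females and 57.0 ± 9.25 in males. The log2 change, male minus female with region as a covariate, was -0.86 ± 0.13 (SE; limma, adjusted p = 0.000635). It was called in all 25 alternative fits. Among them were the ventral (-1.01) and the dorsal (-0.69) libraries alone and the fit with libraries of 1 number averaged.

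Gata4 ranged from 51.2 to 71.1 in females with a median of 59.9, and from 33.6 to 47.3 in males with a median of 43.1. The ranges did not overlap, and the change was -0.58 ± 0.10 (SE; limma, adjusted p = 0.00142). It was called in 24 of 25 alternative fits, the exception being the ventral libraries alone at -0.48 (adjusted p = 0.0687). With libraries of 1 number averaged, the Gata4 change was -0.57 (adjusted p = 0.0174). Male library 7, of unsettled region, with 37.5 for Gata4 and 41.5 for Gata6, was below every female library for both genes.

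The epicardial markers moved with sex in the opposite direction, and 5 of 10 (Wt1, Upk3b, Msln, Krt8 and Krt19) were called higher in males. Over all genes, 10.9% were called in either direction. With these markers as a covariate, Gata6 had -1.11 (adjusted p = 0.000751) and Gata4 -0.47 (adjusted p = 0.0354). With the cardiomyocyte markers as a covariate they had -0.86 and -0.57. Per kb of merged exon, the ratio of Gata6 to Gata4 was 0.802 to 1.29 in the female and 0.563 to 0.965 in the male libraries, ranges that overlapped.

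For the other 8 genes the sex comparison gave changes between -0.26 and 0.56 on the log2 scale. Nkx2-5 had 0.56 ± 0.32 (adjusted p = 0.293), from 1.47 in the ventral libraries alone (adjusted p = 0.0286) and -0.47 in the dorsal libraries alone (adjusted p = 0.241). It was also called higher in males with the epicardial covariate (1.32, adjusted p = 0.0271) and with libraries of 1 number averaged (0.63, adjusted p = 0.0214). Male library 7 had 89.5 for Nkx2-5, 170.2 for Mef2c, 237.7 for Tbx20, 24.6 for Tbx5 and 12.2 for Hand1, its Hand1 value being above all 13 other libraries.

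Other cardiac transcription factors and cofactors changed in both directions in the female hearts. Of 31 listed, 26 were tested, 4 rose ventrally and 6 fell, with a median of -0.21. Over all genes tested, 27.8% were called in either direction, and the median was 0.01. Nfatc4, a calcineurin-dependent factor, rose by 1.21 ± 0.26 (SE; adjusted p = 0.00929). Tbx18, a T-box factor of the epicardium whose locus carries the Cre allele, rose by 1.08 ± 0.28 (adjusted p = 0.0198), and the Hippo pathway factor Tead1 by 1.04 ± 0.15 (adjusted p = 0.00151). Among those that fell, the muscle methyltransferase gene Smyd1 changed by -1.84 ± 0.24 (adjusted p = 0.00104). Hey1, a Notch target, changed by -1.74 ± 0.53 (adjusted p = 0.0362), and Myocd, the serum response factor partner myocardin, by -0.72 ± 0.23 (adjusted p = 0.0408). Tbx3 of the conduction system (-0.81) and the GATA cofactor Zfpm2 (-0.16) were not called. Without female dorsal library 1, Hey1 was at -1.46 (adjusted p = 0.109) and Myocd at -0.78 (adjusted p = 0.061), and both lost their calls. The other 4 kept theirs, in a fit that called 22.9% of all genes.

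Genes known as targets of these factors also changed in both directions in these hearts. Of 21 tested, 2 rose ventrally and 5 fell, with a median of -0.43, beside the same 27.8% of all genes called in either direction. The natriuretic peptide gene Nppa had a mean of 45.0 normalized CPM in female ventral and 1300 in female dorsal libraries, a log2 change of -3.93 ± 0.88 (SE; adjusted p = 0.0101). Gja5, which encodes connexin 40, changed by -2.75 ± 0.46 (adjusted p = 0.00305) and the second natriuretic peptide gene Nppb by -1.58 ± 0.42 (adjusted p = 0.0205). The giant sarcomere gene Ttn rose by 1.40 ± 0.22 (adjusted p = 0.00245) and the calcium release channel gene Ryr2 by 0.65 ± 0.18 (adjusted p = 0.0256). Cardiac troponin T, Tnnt2, was at -0.56 ± 0.33 (adjusted p = 0.231). Nppa is also an atrial marker and Ttn and Ryr2 are also ventricular cardiomyocyte markers in the lists used. The atrial markers, Nppa among them, summed to 12480, 1995 and 493 normalized CPM in female dorsal libraries 1 to 3. The dorsal Nppa mean of 1300 was therefore above the value of library 3. Without female dorsal library 1, Nppa was at -2.93 (adjusted p = 0.0191), Gja5 at -2.41 (adjusted p = 0.0107) and Nppb at -1.67 (adjusted p = 0.0387). In that fit Ryr2 stayed at 0.65 and lost its call (adjusted p = 0.0521).

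In male hearts none of the genes of either list was called, and neither was any of the 14917 genes tested (0.0%). The medians were 0.03 for the 26 other factors and -0.60 for the 20 target genes, beside 0.03 for all genes. Tbx18 had 0.88 ± 0.27 (SE; limma, adjusted p = 0.285) and Nppa -1.30 ± 0.55 (adjusted p = 0.333). Between the sexes, Meis1 was higher and Mef2a and Cited2 were lower in males, and none of the 21 target genes was called. Of all genes, 10.9% were called between the sexes.

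Across the 14 libraries, the genes whose levels tracked each member most closely were found among 9568 genes with a mean of at least 10. The measure was Pearson's correlation of log2 values, given as a description, since all points share the group structure above. Nkx2-5 was nearest to Rrad (r = 0.927), Klhl12 (0.913) and Prmt3 (0.911). Gata4 was nearest to Ppp2r2d (0.943) and Gata6 to Kcmf1 (0.954). Mef2c was nearest to Ndc1 (0.908), Tbx20 to Me2 (0.863) and Tbx5 to Ccn4 (0.869). No member was among the 3 nearest genes of another member, but Gata5, Tbx2 and Hand1, with means under 10, could not appear there.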

How the data were processed

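Each library held poly(A) RNA of epicardium/subepicardium from 2 pooled hearts, with pools drawn from several litters, read as single reads of 60 bases. Per the study's methods and the labels, the authors trimmed reads with Cutadapt, quantified them with RSEM (1.3.1 in the labels, another version in the methods) on the GRCm38 transcriptome, normalized with limma and dropped genes that did not reach 1 CPM in 3 samples. These deposited values, a signal, are normalized CPM per gene, and 100.0% of values were whole reads plus 0.5 within a tolerance of 0.02 reads. The reads per library (13918995 to 25221314) set the precision for low genes such as Gata5. Whether library construction and counting kept the strand is not stated, so reads of a gene and of an antisense partner may not have been told apart.

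The 10 members, the gene lists and the tests were chosen with earlier results of these data known. The genes named beside the members were the 3 called genes of each list with the largest change in each direction in females, Tbx3, Tbx18, Zfpm2, Nppa and Tnnt2, and the 3 nearest genes of each member. Marker lists covered ventricular and atrial cardiomyocytes, epicardium, fibroblasts, smooth muscle and pericytes, blood endothelium, neurons and Schwann cells, hepatocytes and lung epithelium. In females, 1 of 6 smooth muscle genes rose ventrally and 3 fell, 1 of 7 endothelial genes rose, and none of 2 neural genes and 1 lung gene tested was called. No hepatocyte gene passed the filter in females.

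Tests used limma 3.58.1 (lmFit, eBayes with trend) in R 4.3.3 on log2(value + 1), over genes that reached 1 in 3 or more of the fitted libraries, with Benjamini-Hochberg adjustment over all genes tested and two-sided p-values. The fits for both sexes and the interaction used the 13 libraries of settled region. Scripts were tested on simulated data. Other settings tried were a smaller pseudocount (0.1), testing of every gene, testing only genes whose mean reached 10, median-of-ratios scaling, the edgeR 4.0.16 quasi-likelihood test on recovered reads, GC and length trends taken out of each library (natural splines, 5 degrees of freedom), each library left out, a replicate block, and the mean of the cardiomyocyte or epicardial markers as a covariate. For the sexes, libraries of 1 number were also averaged, and fits of the ventral or dorsal libraries alone were added after seeing the data. Ventral and dorsal libraries of a sex share numbers. Their deviations from the group means over 15870 genes had correlations of 0.186, 0.169 and 0.269 (numbers 1 to 3, female) and 0.425, 0.175 and 0.349 (numbers 4 to 6, male). The numbers were taken to pair the libraries. Correlations between unlike numbers were not computed, so these values alone do not establish the pairing. Positions are from GENCODE M21 on GRCm38, which held 15877 of the identifiers (99.9%).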

Additional observations from a re-analysis of the deposited data

Results flagged for a closer look

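The regional change of Nkx2-5 differed between the sexes in a test of the difference itself. The male change minus the female change was 1.93 on the log2 scale (SE 0.43; limma interaction, adjusted p = 0.0252), with -1.92 in females and 0.01 in males. Female libraries 1 to 3 agreed in direction, with Nkx2-5 higher dorsally in 3 of 3 numbers. Of male numbers 4 to 6, 2 were higher ventrally and 1 dorsally. The difference was positive in each of the 23 alternative fits, from 1.40 to 2.26, and 15 of them called it. Dixon's test was run only in the male ventral group, which held 4 libraries, and no sample of the 10 genes stood out there. The groups of 3 libraries, among them both female ones, were not examined by it.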

How the results depend on the processing

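Of 50 results (10 genes in 5 comparisons), 20 changed sign under at least 1 alternative, and none of the 6 called ones did. The 2 calls of the female comparison became 0 with the epicardial covariate and 4 with the replicate block, which added Gata6 and Tbx5 to Nkx2-5 and Mef2c, and ranged from 1 to 3 when 1 library was left out (Gata6 was gained without female ventral 1 and Tbx5 without female dorsal 2). Over both sexes, the 1 call (Gata4) became 2 (Mef2c and Nkx2-5) with the GC and length trend removed. It became 0 with either marker covariate, 0 with the replicate block and 0 with the block and the trend removed, and ranged from 0 to 3 when 1 library was left out, the 3 being Gata6, Nkx2-5 and Mef2c without male ventral 5. The 1 call between the regional changes became 0 with the trend removed and 0 with the epicardial covariate, and was 0 or 1 when 1 library was left out. Other calls gained in females were Tbx20 with the trend removed (-0.55) and with the block and the trend removed (-0.55), Tbx5 with edgeR (-2.15) and with the cardiomyocyte covariate (-1.66), and Gata6 with the filter on a mean of 10 (0.45). With the block and the trend removed together, the Gata6 (adjusted p = 0.119) and Tbx5 (adjusted p = 0.0675) calls of the block were lost. The replicate block changed no other call. Male calls stayed at 0 under every alternative run, and the number of sex calls moved by at most 1. Which genes these were changed in the ventral libraries alone, where Gata4 lost its call and Nkx2-5 gained one, and Nkx2-5 also gained one with the epicardial covariate and with averaged numbers. Where a call or a sign changed, the cause was not tested.

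Signs turned as follows, in log2 units. With the epicardial covariate, females had Gata6 at -0.20, Tbx5 at 1.52 and Hand2 at -0.42, males had Tbx5 at 0.011 and Hand1 at 0.18, and both sexes together had Tbx5 at 0.069 and Hand1 at 0.18. The same covariate gave interactions of -0.88 for Tbx2, -0.034 for Mef2c and -0.63 for Hand1, and sex differences of 0.68 for Tbx2, 0.17 for Mef2c, 0.47 for Tbx5 and 0.40 for Hand1. With the cardiomyocyte covariate, male Hand1 was at 0.24. Removing the GC and length trend gave -0.33 for male Nkx2-5 and sex differences of 0.12 for Mef2c and 0.0066 for Tbx20. The replicate block gave 0.0062 for male Tbx5 and 0.0088 for male Hand1. With the trend removed as well, the block gave -0.083 for male Nkx2-5 and 0.021 for male Tbx5. In ventral libraries alone the sex difference was 0.062 for Tbx2, 0.047 for Mef2c, 0.40 for Tbx5 and 0.13 for Hand2. In dorsal libraries alone it was -0.47 for Nkx2-5.

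Leaving out 1 library gave female ranges of -0.96 to -0.11 for Hand1, -0.27 to 0.41 for Tbx2 and -0.015 to 0.20 for Hand2. Male ranges were -0.17 to 0.27 for Nkx2-5, -0.16 to 0.11 for Tbx5, -0.18 to 0.036 for Tbx20 and -0.88 to 0.0088 for Hand1. The Hand1 interaction ranged from -0.25 to 0.65. Sex differences ranged from -0.26 to 0.025 for Tbx2, -0.41 to 0.17 for Tbx5, -0.45 to 0.057 for Hand1 and -0.11 to 0.053 for Hand2.

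Groups held 3 or 4 libraries. Gata5, Hand1 and Tbx2 had few reads and varied widely between pools. The filter on a mean of 10 left out these 3 genes. P-values measure the spread between libraries. The main fits took the ventral and dorsal libraries of a number as independent. In the sex comparison, a number with both regions therefore entered with both its libraries, and only the fit with averaged numbers measures the spread between numbers.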
